A study of Rattus norvegicus with 2 samples.

Results

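The 39 genes described here carry out or control fatty acid synthesis, uptake, storage and oxidation. They were taken as a fixed list of symbols and read from the probe sets annotated to exactly 1 gene, where that gene was on the list. All 39 were on the array, among 14217 genes in all, and 35 of them had a signal above the detection floor in at least 1 array, as had 9182 of all genes. The list was selected on pathway membership with the signals of these same arrays already known, so its counts describe the arrays and test nothing. Expression had been measured with Affymetrix arrays in AT6.1, an established rat prostate cancer cell line. The Ndrg-1 group was a clone that received N-myc downstream regulated gene-1, the inserted gene, in the plasmid pcDNA3, and the vector group was a clone of the same line that received pcDNA3 with no inserted gene. Both grew in RPMI medium and fetal calf serum under G418, the drug that selects for the vector. Each group was 1 clone on 1 array, so there is no replicate error and no p-value, and the insert, the clone, the culture and the array cannot be told apart.

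Fatty acids are made in the cytosol from acetyl-CoA, lengthened and desaturated at the endoplasmic reticulum, and joined to coenzyme A before they are stored in glycerolipids or burned. For oxidation the acyl chain is moved into mitochondria as a carnitine ester and shortened in repeated rounds of dehydrogenation, hydration and thiolysis. Malonyl-CoA, the first product of synthesis, inhibits the import step, so the routes oppose each other. Prostate cancer is known for active fatty acid synthesis and for oxidizing fatty acids as fuel.

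Signals are probe set intensities on a linear scale, with the vector array rescaled to bring the brighter probe sets to a median log2 ratio of 0, by 0.0048 on the log2 scale. As detection floor served the median of all signals, 31.0, to which lower signals were raised before a ratio was taken. For a gene on that floor in 1 of the arrays, the ratio is only a bound. As a stand-in for error, the log2 ratios of probe sets for the same gene differed with an SD of 0.23 on the log2 scale, and it was 0.28 among genes with a mean signal up to 134 and 0.18 above 270. This SD leaves out the variation between cultures and clones. The transfected gene itself was read by 2 probe sets. The brighter Ndrg1 probe set gave 1353 in the Ndrg-1 clone against 1066 in the vector clone. The dimmer gave signals of 154 and 182. Their log2 ratios of 0.34 and -0.24 lay within 2 SD, and the extent of the insert is not given in the labels, so these probe sets do not check the groups. Of 10 epithelial markers on the array only Krt8 was above the floor, with signals of 38.7 and 46.4, while Cdh1 and Epcam were under it. Of 9 mesenchymal markers 8 were above it, Vim among them at 4344 and 5818. Of 5 prostate markers on the array Pbsn, Hoxb13 and Klk1 were under the floor in both arrays. Fkbp5 was above it in both, at 1113 and 1714, and Tmprss2 only in the Ndrg-1 array, at 35.4 and 18.8.

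Most steps of fatty acid metabolism differed little between the arrays, and 5 genes stood out. Scd, Acsbg1 and Lpin1 were lower in the Ndrg-1 clone by 2-fold or more, and Cd36 and Pdk4 were higher by 2-fold or more. These 3 lower genes are 8.57% of the 35 measured, against 1.5% of all measured genes, and the 2 higher genes are 5.71%, against 1.62%. Scd and Lpin1 counted as measured only through the vector array, where they were higher. Of the 32 fatty acid genes above the floor in both arrays, 1 was 2-fold lower (3.12%) and 2 were higher (6.25%). The share of all genes limited in that way was not taken. Dim genes pass 2-fold more often. Scd, Acsbg1, Lpin1 and Pdk4 were among 10 fatty acid genes with a mean signal up to 97.8, where 7.49% of all measured genes differed by 2-fold in either direction. Cd36 was among 14 with a mean signal above 540, where 0.828% did. The other 30 lay between log2 ratios of -0.73 and 0.59. Of the 35 genes, 26 had a log2 ratio below 0 (74.3%, against 49.6% of all measured genes), with a median of -0.14 where the median of all measured genes was 0.00. Past 2 SD of the probe set disagreement, a log2 ratio of 0.46 in either direction, were 7 of the 35, against 16.9% of all measured genes. The share of genes below 0 depends on the scaling. The hybridisation spikes, control RNAs added after labelling, had a median log2 ratio of -0.54, and scaled to them 4 of the measured fatty acid genes were below 0. The poly-A spikes, added before labelling, had a median of 0.22, and scaled to them 29 were below 0. Those scalings put the median of all genes at 0.53 and -0.21. Scaled to the hybridisation spikes, 3 of these genes were 2-fold higher and 3 lower, where 7.88% of all measured genes were higher and 0.463% lower. With the poly-A spikes as the scale, 1 was higher and 3 were lower, where 1.1% and 2.61% of all measured genes were.

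**Figure D1:**
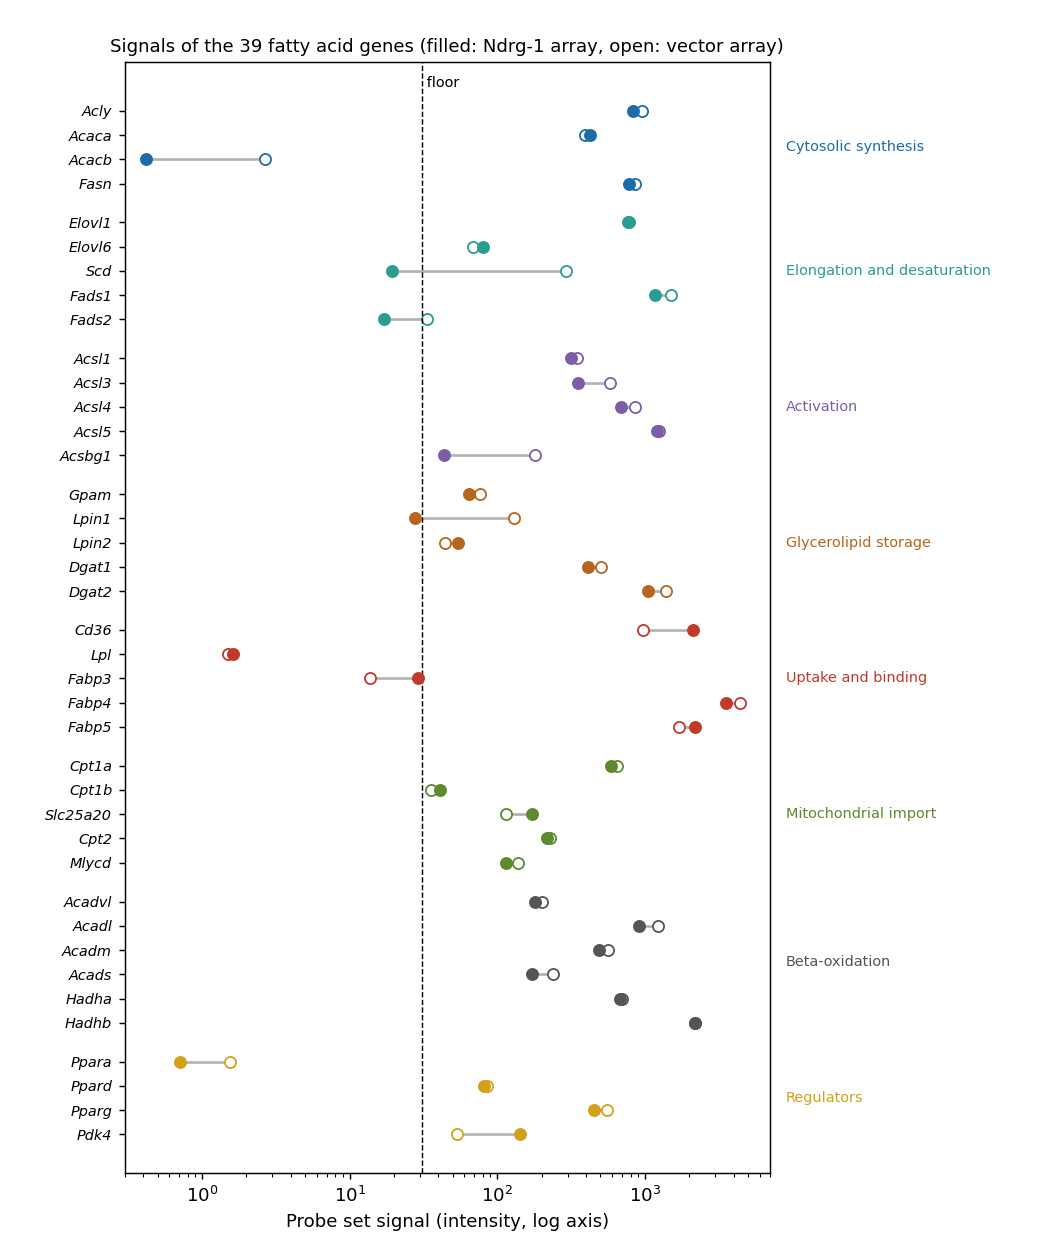
Probe set signal (intensity, log axis) of each of the 39 genes in the Ndrg-1 array (filled) and the vector array (open), 1 array each, ordered by step, with the floor of 31.0 as a dashed line. The long bars above the floor are those of Scd, Acsbg1, Lpin1, Cd36 and Pdk4, and Acacb, Lpl, Fabp3 and Ppara lie under the floor in both arrays.

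The sequences before the transcription start of the 5 genes that stood out are shown because these genes were the ones that differed, and because sterol-sensing and lipid-sensing factors bind such regions in many genes of fatty acid metabolism. Each is the 250 bases before the start in RefSeq on the rat assembly GRCr8, read 5' to 3' along the gene, and capitals mark a CCAAT box on either strand.

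Scd (chr1:253231732-253231981, minus strand): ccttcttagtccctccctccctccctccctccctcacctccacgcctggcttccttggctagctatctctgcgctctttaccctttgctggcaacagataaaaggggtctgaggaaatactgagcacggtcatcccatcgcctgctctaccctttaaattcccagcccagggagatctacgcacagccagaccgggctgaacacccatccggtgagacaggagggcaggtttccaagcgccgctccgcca
Acsbg1 (chr8:63943279-63943528, minus strand): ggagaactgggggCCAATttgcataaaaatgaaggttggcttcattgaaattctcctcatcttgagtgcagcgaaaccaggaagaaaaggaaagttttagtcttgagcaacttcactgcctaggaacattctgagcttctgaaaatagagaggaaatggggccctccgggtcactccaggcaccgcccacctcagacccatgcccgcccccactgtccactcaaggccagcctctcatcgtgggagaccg
Lpin1 (chr6:45108943-45109192, minus strand): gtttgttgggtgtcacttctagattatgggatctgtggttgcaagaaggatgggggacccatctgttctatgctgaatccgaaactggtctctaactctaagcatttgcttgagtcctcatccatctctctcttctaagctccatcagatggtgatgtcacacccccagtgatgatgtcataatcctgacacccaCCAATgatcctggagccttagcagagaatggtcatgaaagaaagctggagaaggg
Cd36 (chr4:18246332-18246581, plus strand): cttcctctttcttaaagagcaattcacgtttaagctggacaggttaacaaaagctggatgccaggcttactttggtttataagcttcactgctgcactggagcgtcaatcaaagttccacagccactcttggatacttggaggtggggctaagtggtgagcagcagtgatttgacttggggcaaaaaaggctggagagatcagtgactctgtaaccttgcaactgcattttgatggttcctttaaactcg
Pdk4 (chr4:34568330-34568579, minus strand): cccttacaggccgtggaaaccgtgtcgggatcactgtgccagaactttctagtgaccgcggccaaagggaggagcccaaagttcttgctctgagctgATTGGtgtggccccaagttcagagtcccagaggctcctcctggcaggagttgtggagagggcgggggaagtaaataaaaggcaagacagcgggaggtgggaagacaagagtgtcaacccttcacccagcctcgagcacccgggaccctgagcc

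Of the 39 genes, 28 had such a window in RefSeq. The CCAAT box, searched as CCAAT on both strands, was found in 12 of the 28 (42.9%) and in 34.0% of all 33469 windows. It began 237 bases before the start in Acsbg1, 55 bases before it in Lpin1 and, on the opposite strand, 153 bases before it in Pdk4. The windows of Scd and Cd36 did not hold these letters. A sterol regulatory element searched as TCACNCCAC was in 0 of the 28 and in 0.974% of all windows, and an E-box searched as CACGTG was in 0 of the 28 and in 5.59% of all windows. Direct repeats of AGGTCA spaced by 1 base and by 4 bases, the forms read by PPAR and LXR receptors, were in 0 of the 28, and in 0.0508% and 0.00299% of all windows. No match says only that these letters are not in the window.

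The cytosolic enzymes that build palmitate had similar signals in both arrays. Acly, which cuts citrate into the acetyl-CoA used for synthesis, gave 836 in the Ndrg-1 clone against 950 in the vector clone, a log2 ratio of -0.19. Acaca, the acetyl-CoA carboxylase that commits carbon to synthesis, gave signals of 423 and 392, a log2 ratio of 0.11. Its dimmer probe set went the other way, at 46.2 and 62.0 (-0.43). Fasn, the fatty acid synthase, gave signals of 780 and 859 on the brighter probe set (log2 ratio -0.14) and 242 and 193 on the dimmer (0.33). In Acaca and Fasn the 2 probe sets differed by less than 0.65, which is 2 SD of a difference between probe sets. Their signs were opposite, so neither gene has a settled direction. Acacb, the carboxylase at the mitochondrial surface whose product restrains import, lay under the floor with signals of 0.419 and 2.69. None of the 3 measured genes of this step reached 1.5-fold.

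Desaturation held the lowest ratio of the list. Scd, which sets the first double bond into stearate and palmitate, gave 19.3 in the Ndrg-1 clone, under the floor, against 291 in the vector clone, and was at least 9.38-fold lower. At that bound, 0.0218% of all measured genes had a lower ratio, and since the ratio is a bound, so is this rank. The value rests on 1 probe set. Its close relative Scd2, which is not on the list of 39 but makes the same products, gave signals of 2902 and 4166 on its brightest probe set, a log2 ratio of -0.52. Its other 3 probe sets gave signals of 500 and 1203 (log2 ratio -1.27), 68.9 and 101 (-0.56), and 55.9 and 50.8 (0.14). Thus 3 of the 4 Scd2 probe sets were lower and 1 was higher in the Ndrg-1 array, and 1 passed 2-fold. Scd and Scd2 are near-identical copies in part, and how far each probe set reads only its own gene was not tested.

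The other enzymes that lengthen and desaturate chains differed less. Fads1, a desaturase of polyunsaturated fatty acids, gave signals of 1175 and 1500, a log2 ratio of -0.35. Fads2, the desaturase that acts before it, was at 17.1 in the Ndrg-1 array, under the floor, and at 33.3 in the vector array, just above it, so its log2 ratio of -0.10 is only a bound. With the floor at the 25th percentile the ratio was -0.96. Elovl1, the elongase of very long chains, gave signals of 787 and 768 (0.04). Elovl6, which lengthens palmitate to stearate and so supplies Scd with substrate, gave signals of 80.6 and 68.7 (0.23), with a dimmer probe set at -0.10. Both elongases lay within 2 SD of the probe set disagreement.

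**Figure D2:**
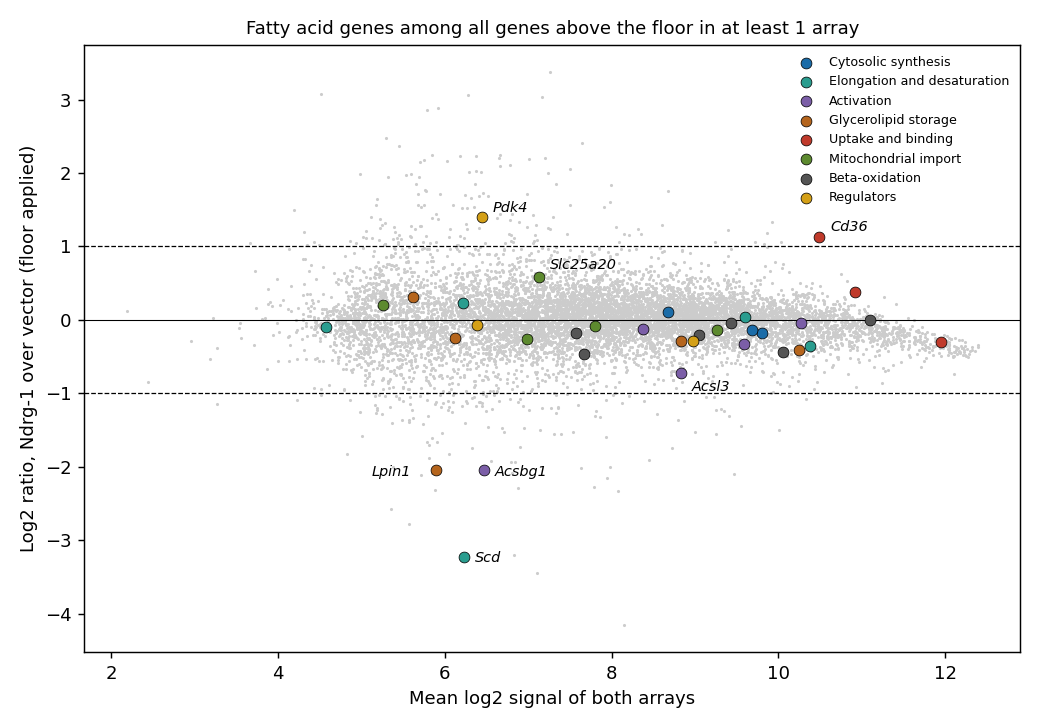
Log2 ratio of the Ndrg-1 over the vector array against the mean log2 signal for the 9182 measured genes (grey) and the 35 measured fatty acid genes (coloured by step), with the floor applied to the ratios and dashed lines at 2-fold. Scd at -3.23, Lpin1 and Acsbg1 at -2.05, Pdk4 at 1.40 and Cd36 at 1.13 lie outside the dashed lines.

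All 5 acyl-CoA synthetases, which join free fatty acids to coenzyme A, had log2 ratios below 0, with a median of -0.32, where 49.6% of all measured genes were below 0. With the trend on signal removed Acsl5 was at 0.04, and the other 4 stayed below 0. Acsbg1, a synthetase of the bubblegum family known from brain and steroid-producing tissues, gave 43.6 in the Ndrg-1 clone against 181 in the vector clone, and was 4.14-fold lower. Both arrays were above the floor, and 0.174% of all measured genes had a lower ratio. Acsl3, which sits on the endoplasmic reticulum and on growing lipid droplets, gave signals of 352 and 584 and was 1.66-fold lower. These 2 genes passed 2 SD of the probe set disagreement and the other 3 did not, where 16.9% of all measured genes did. Acsl4, which favours arachidonate, gave signals of 686 and 859 (log2 ratio -0.32). Acsl1, the main synthetase of fat and liver, gave signals of 318 and 347 (-0.13), and its second measured probe set was at 0.01. Acsl5 gave signals of 1215 and 1250 (-0.04), with its second probe set at -0.15. Scaled to the hybridisation spikes the median of the step was 0.22.

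Storage genes were led by the phosphatidate phosphatases, which make diacylglycerol. Lpin1, lipin 1, gave 27.6 in the Ndrg-1 clone, under the floor, against 129 in the vector clone, and was at least 4.14-fold lower. Its second probe set gave signals of 38.4 and 66.9, a log2 ratio of -0.80, which is the same direction but 1.25 apart from the first. The paralog Lpin2 was not lower, with signals of 54.5 and 44.1 (0.31) and 39.5 and 36.7 (0.10) on its 2 probe sets. Both acyltransferases that finish triacylglycerol had lower signals in the Ndrg-1 array. Dgat2 gave signals of 1054 and 1395 (log2 ratio -0.40), with the second probe set at 575 and 878 (-0.61). Dgat1 gave signals of 411 and 503 (-0.29). Gpam, which starts the pathway by acylating glycerol phosphate, gave signals of 64.0 and 75.9 (-0.24), and its second probe set, on the floor in the Ndrg-1 clone, was at -0.54 or lower. None of these 3 reached 1.5-fold on its brightest probe set. Over the 4 steps from synthesis to storage, 14 of 18 measured genes had a log2 ratio below 0 (median -0.21), against 49.6% of all measured genes. Of the 18, 3 were 2-fold lower and 0 higher, against 1.5% and 1.62% of all. Of these 3, Scd and Lpin1 counted as measured only through the vector array. Scaled to the hybridisation spikes, 4 of 17 measured genes of these steps were below 0, against 6.61% of all.

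**Figure D3:**
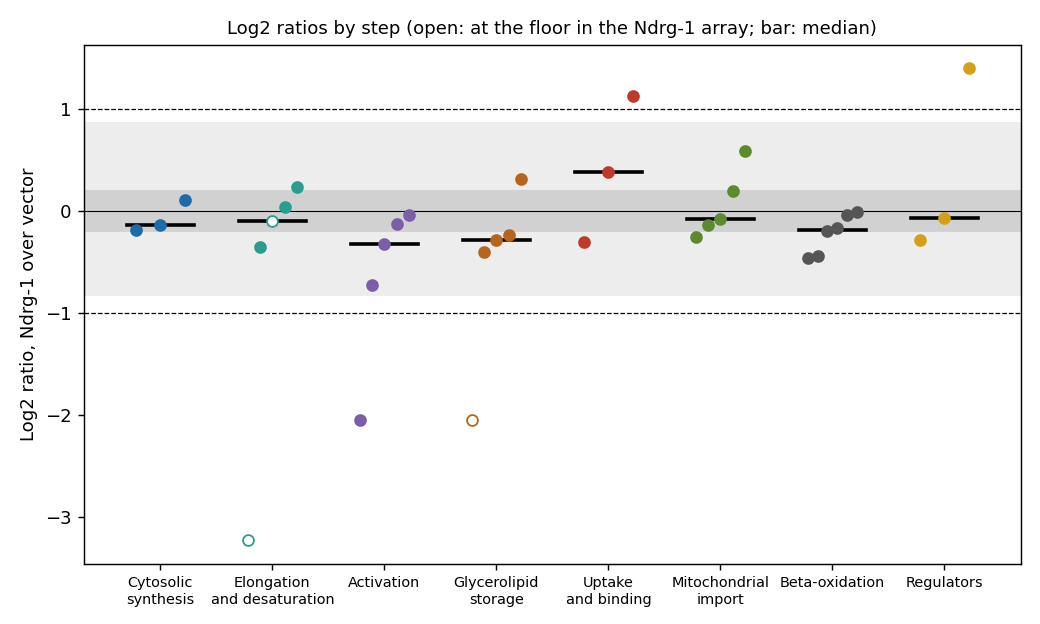
Log2 ratio of the Ndrg-1 over the vector array for the 35 measured genes by step, with the median of each step as a bar, open points on the floor in the Ndrg-1 clone, and dashed lines at 2-fold. Dark and light grey bands hold the central 50% (-0.20 to 0.20) and the central 95% (-0.82 to 0.86) of all measured genes, and 30 of the 35 points lie inside the light band.

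Uptake was the step with the highest median, 0.38 over 3 measured genes. Cd36, the fatty acid translocase of the plasma membrane, gave 2125 in the Ndrg-1 clone against 971 in the vector clone, and was 2.19-fold higher. Of all measured genes 1.18% had a higher ratio. The value rests on 1 probe set, as a second one, annotated to Cd36 and another gene, was not used. Scaled to the poly-A spikes its log2 ratio was 0.92, under 2-fold. Fabp5, a cytosolic carrier of fatty acids best known from skin, gave signals of 2196 and 1692 (log2 ratio 0.38). Fabp4, the carrier of fat cells and macrophages, gave signals of 3558 and 4388 (-0.30). It lay among the measured genes with a mean signal above 540, whose median log2 ratio was -0.06, and its log2 ratio was 0.05 after quantile normalization and -0.07 once the trend on signal was removed. Fabp3, the carrier of heart muscle, was under the floor at 29.2 and 13.8, and passed 2-fold only with the floor at the 25th percentile. Lpl, the lipase that frees fatty acids from lipoproteins, was near 0 signal in both arrays, at 1.62 and 1.49.

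Markers of other cell types that use Cd36 and Fabp4 were looked at beside them. The 9 adipocyte markers on the array summed to a signal of 1043 in the Ndrg-1 clone against 807 in the vector clone, and 4 of them were above the floor. The lipid droplet coat genes Plin1 and Plin4 were higher, with signals of 157 and 38.8 (4.05-fold) and 203 and 90.9 (2.23-fold). The other 2 were not, with Cebpa, the largest part of the sums, at 556 and 566 (log2 ratio -0.03) and Lipe at 61.9 and 70.5 (-0.19). A further Plin1 probe set, on the floor in the vector clone, had a log2 ratio of 0.31 or more. What part these markers have in the Cd36 value was not tested. The adipocyte-defining hormones Adipoq, at 0.865 and 6.54, and Lep, at 1.14 and 1.53, were near 0 in both arrays. The 10 macrophage and leukocyte markers summed to 485 and 511, and 3 were above the floor. They differed in direction, with Cd68 at 206 and 114 (log2 ratio 0.85), Cd14 at 210 and 309 (-0.56) and Csf1r at 15.7 and 33.4 (a bound of -0.11). The pan-leukocyte marker Ptprc was at 2.72 and 3.26. The 7 endothelial markers summed to 213 and 155, with 2 above the floor in at least 1 array, both higher in the Ndrg-1 clone. Egfl7 gave signals of 145 and 88.3 (log2 ratio 0.72), with its second probe set at 0.3. Esam gave 45.8 in the Ndrg-1 clone and was on the floor in the vector clone (0.56 or more). Pecam1 was under the floor at 3.63 and 12.2. The 9 muscle markers summed to 124 and 181, with 3 above the floor in at least 1 array. All 3 were lower in the Ndrg-1 clone. Des gave signals of 38.8 and 46.5 (log2 ratio -0.26). Myod1 gave 6.7 and 45.7 (-0.56 or lower) and Ckm 25.1 and 34.2 (-0.14 or lower), both on the floor in the Ndrg-1 clone. Mb was under the floor at 0.984 and 0.89. In a bulk sample fewer cells of a type and less RNA per cell cannot be told apart.

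Import into mitochondria differed little except at the carrier of the inner membrane. Slc25a20, the carnitine-acylcarnitine translocase, gave 172 in the Ndrg-1 clone against 114 in the vector clone, a log2 ratio of 0.59. It was the 1 gene of the 11 for import and oxidation past 2 SD of the probe set disagreement over all genes, where 16.9% of all measured genes were. Slc25a20 reached 1.5-fold but not 2-fold. Its value rests on 1 probe set, and 5.42% of all measured genes had a higher ratio. At 1.5-fold, 3 of the 35 genes were higher, against 5.54% of all measured genes, and 4 were lower, against 5.18%. Cpt1a, the liver-type carnitine palmitoyltransferase that sets the rate of import, gave signals of 587 and 648 (-0.14), and its second probe set was at 0.04. The muscle-type Cpt1b lay close to the floor at 41.1 and 35.8 (0.20). Cpt2, which reverses the transfer inside the mitochondrion, gave signals of 216 and 228 (-0.08). Mlycd, which degrades malonyl-CoA and so lifts the brake on import, gave signals of 115 and 139 (-0.26).

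The 6 measured genes of beta-oxidation had log2 ratios between -0.46 and -0.01 with a median of -0.19, and none reached 1.5-fold. Of all measured genes 49.6% were below 0. Of those with a mean signal above 540, which include Acadl, Hadha and Hadhb, 59.1% were. The share was 43.6% for mean signals from 230 to 540, where Acadm lay. For mean signals from 97.8 to 230, where Acads and Acadvl lay, it was 46.9%. Among the acyl-CoA dehydrogenases, which take the first step of each round for chains of different length, the long-chain enzyme Acadl gave signals of 910 and 1234 (log2 ratio -0.44). The short-chain enzyme Acads gave signals of 173 and 239 (-0.46). The medium-chain enzyme Acadm gave signals of 492 and 567 (-0.20), and the very long-chain enzyme Acadvl gave signals of 180 and 202 (-0.17). Acadl and Acads thus had the lowest ratios of the step, both inside 2 SD of the probe set disagreement over all genes. Both were past 2 SD of the disagreement among genes of like signal, where the SD was 0.18 for Acadl and 0.22 for Acads. That was not particular to this step, since Dgat2 (-0.40) and Fabp5 (0.38) were past it too at an SD of 0.18. The share of all measured genes past this narrower limit was not taken. Hadha and Hadhb, the subunits of the mitochondrial trifunctional protein, were nearly equal between arrays, at 679 and 699 (-0.04) and at 2189 and 2199 (-0.01). The sign of these subunits is not settled, since Hadhb was at 0.13 after quantile normalization and 0.14 with the trend on signal removed, and Hadha at 0.04 as the median over probe sets. A second Hadha probe set was at 0.13, and the third was under the floor. Scaled to the hybridisation spikes the median of the step was 0.36.

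Among the regulators, Pdk4, the kinase that inhibits pyruvate dehydrogenase and so spares glucose when fatty acids are burned, gave 142 in the Ndrg-1 clone against 53.8 in the vector clone, and was 2.63-fold higher. Of all measured genes 0.697% had a higher ratio. The second Pdk4 probe set gave signals of 39.5 and 28.4, the vector value on the floor, and a log2 ratio of 0.35 or more. The median over both probe sets was 0.87, under 2-fold. Pparg, the nuclear receptor that drives fat storage, gave signals of 454 and 557 (-0.29). Ppard, the broadly expressed receptor of the family, gave signals of 81.8 and 85.9 (-0.07). Neither of these receptor genes was past 2 SD of the probe set disagreement. Ppara, the receptor that drives oxidation in liver, was near 0 signal in both arrays at 0.712 and 1.54 and has no ratio.

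**Figure D4:**
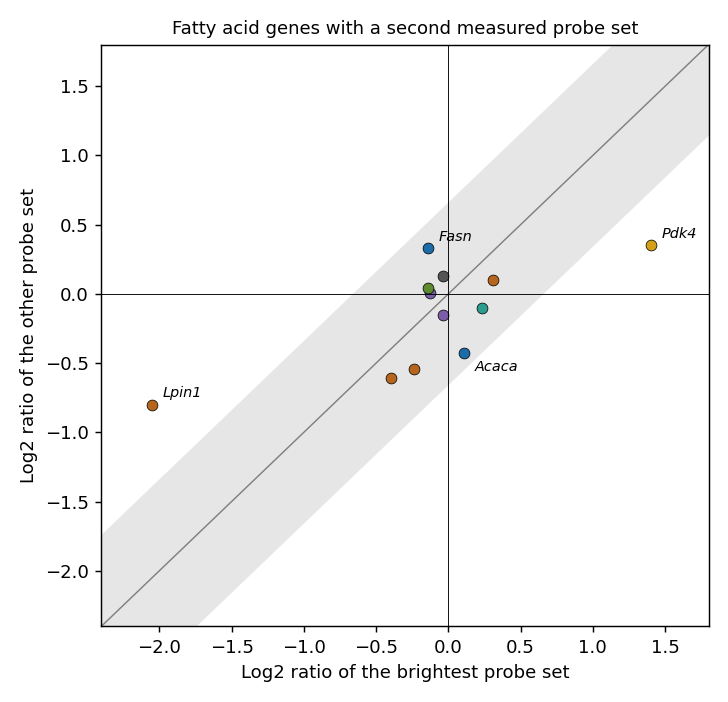
Log2 ratio of the other probe set against that of the brightest probe set for the 12 fatty acid genes with a second measured probe set, coloured by step as in the plot of ratios by step, with equality as a line and 0.65 on either side of it (2 SD of a difference between probe sets) as a band. Lpin1 and Pdk4 lie outside the band, each on the same side of 0 for both probe sets.

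For 12 of the 39 genes a second measured probe set could be compared. In 10 of the 12 it lay within 0.65 of the brightest one. In 6 of them it had the same sign and in 6 the opposite sign. The genes of opposite sign were Acaca, Fasn, Elovl6, Acsl1, Cpt1a and Hadha, in which both ratios were small. Lpin1 and Pdk4 differed by more than 0.65 and kept their direction. Scd, Acsbg1 and Cd36 had 1 probe set each and so had no such check.

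Further genes of the same pathways were read from a wider list of 111. Of these, 98 were on the array by name and 72 were measured. Of the 72, 2 were 2-fold higher (2.78%) and 1 was 2-fold lower (1.39%), close to the 1.62% and 1.5% of all measured genes, and the median log2 ratio was -0.08. The higher genes were Mgll, the lipase that frees the last fatty acid from glycerol, with signals of 495 and 47.8 (10.3-fold), and Vldlr, a receptor for triglyceride-rich lipoproteins, with signals of 750 and 223 (3.36-fold). The lower gene was Insig1, which holds the sterol sensor in the endoplasmic reticulum, with signals of 391 and 810 (2.07-fold). The elongation and desaturation group of the wider list, with 6 measured genes, and the activation and thioesterase group, with 8, held 0 genes past 2-fold. The same was so of its mitochondrial group, with 19 measured genes, and its peroxisomal group, with 6.

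**Figure D5:**
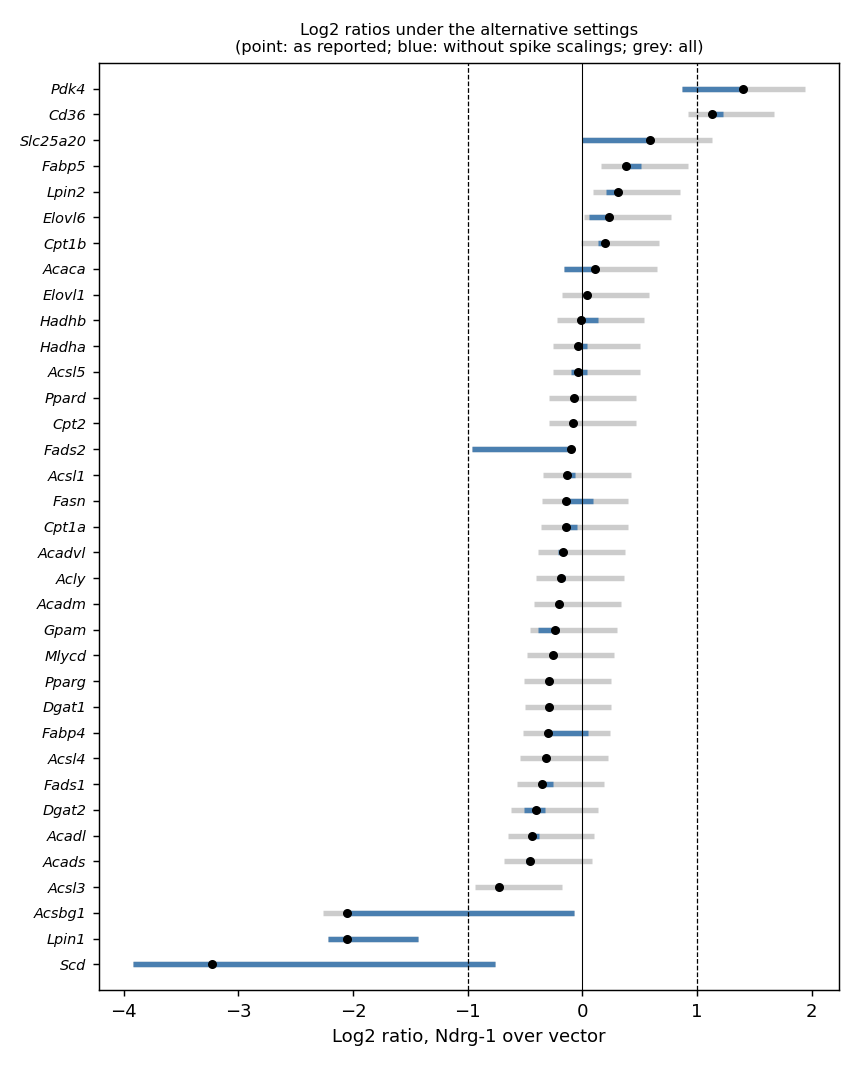
Log2 ratio of each of the 35 measured fatty acid genes as reported (point) and its range under the alternative settings, without the scalings to spikes (blue) and with them (grey), with dashed lines at 2-fold. Lower ratios of Lpin1, Scd and Acsbg1 and higher ratios of Cd36 and Pdk4 keep their side of 0 in each range, and most other genes cross 0 when the arrays are scaled to spikes.

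The ratios of 28 of the 35 genes kept 1 sign in those of the 8 settings without spike scaling in which they were measured, and 10 kept it in those of all 10. Scd ranged from -3.92 to -0.76, the last with the floor at the 75th percentile, where the floor of 172 lies above both signals of Lpin1 and Pdk4, and above the Ndrg-1 signals of Scd and Acsbg1. Cd36 ranged from 0.92 to 1.67 and was the 1 gene of the 5 that stayed past 2-fold at that floor.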

How the data were processed

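Total RNA of 2 arrays (1 Ndrg-1, 1 vector) was compared. The authors deposited intensities, 1 per probe set. The submitters' processing notes name GCOS 1.3. Its scaling and detection calls are not given in those sources, and the number of arrays limits the precision. Of 31099 probe sets, 57 controls were set apart, 20826 of the others had 1 gene symbol in the platform annotation, 436 several and 9780 none. By gene ID, 20758 matched RefSeq (assembly GRCr8, used for names and promoter windows). The vector array was rescaled on the brighter 50% of probe sets. Each gene was read from its brightest probe set, by mean log2 signal. A gene was measured if either array exceeded the floor, and differences were counted at 2-fold. The probe set SD used 5336 probe sets of 2296 genes above the floor in both arrays.

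All 39 genes are named, and of the wider list those past 2-fold. Members, lists and motifs were chosen with earlier results of these data known. The wider list gave no match for 13 names, which were not analysed here. Alternatives covered scaling (none, quantile, lowess with fraction 0.3, spikes), floors, a pseudocount of 16, probe set choice and 1.5-fold. The counting was tested on simulated data, with changes placed only in genes brighter than the median gene, so calls of dim genes were not tested. Python 3.11.15, numpy 2.4.6, pandas 2.3.3, statsmodels 0.14.6 and matplotlib 3.10.9 were used.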

Additional observations from a re-analysis of the deposited data

How the results depend on the processing

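With 1 array per group no alternative carries a p-value. All 5 genes past 2-fold stayed past it in 8 of the 11 alternatives, 1 of which only lowers the limit to 1.5-fold. With the floor at the 75th percentile the counts were 1 higher and 0 lower, since fewer signals lie above that floor. Cd36 dropped under 2-fold when scaled to the poly-A spikes, which left 1 higher gene, and Pdk4 when the median over probe sets was taken, which also left 1. Slc25a20 passed 2-fold when scaled to the hybridisation spikes, and Fabp3 with the floor at the 25th percentile. The median log2 ratio of the fatty acid genes was 0.37 when scaled to the hybridisation spikes, where that of all genes was 0.53. In the wider list, counts of 2 higher and 1 lower became 7 and 0 when scaled to the hybridisation spikes, as those of all genes went from 149 and 138 to 732 and 43. The lower count became 3 with the poly-A spikes, 4 with the floor at the 25th percentile and 2 with a pseudocount, where that of all genes was 240, 463 and 135. At 1.5-fold the wider list held 5 higher and 9 lower genes of 72, where 5.54% and 5.18% of all measured genes were. Of 340 values of single genes under an alternative, 293 moved by less than the probe set SD, 47 moved by more, and 0 changed the sign of a gene past 2-fold. No paired analysis was possible because each group has 1 array. Apart from the floor and the spikes, the cause of these moves was not tested.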

Other observations

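Genes that supply or switch on fatty acid synthesis were among those of the wider list past 1.5-fold. They were chosen after their values were seen. Acss2, which makes acetyl-CoA from acetate, gave 143 in the Ndrg-1 clone against 274 in the vector clone (log2 ratio -0.94). Slc25a1, the citrate carrier that exports the carbon for Acly, gave signals of 425 and 704 (-0.73). Srebf1, the transcription factor gene that drives synthesis, gave signals of 363 and 567 (-0.64), with its second probe set at -0.57. Me1, the malic enzyme that supplies NADPH for synthesis, went the other way, with signals of 235 and 151 (0.64) and a second probe set at 260 and 132 (0.98). All 4 stayed under 2-fold, while Acly, Acaca and Fasn stayed under 1.5-fold.

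In uptake and oxidation, also chosen after their values were seen, Angptl4, a secreted inhibitor of lipoprotein lipase, gave signals of 56.8 and 13.8, on the floor in the vector clone, and was at least 1.83-fold higher. Slc27a1, a fatty acid transport protein, gave signals of 59.3 and 112 (-0.92). Lrp1, in the uptake group of the wider list, was also lower, with signals of 601 and 915 (-0.61). Among the kinases related to Pdk4, Pdk1 gave signals of 307 and 209 (0.55, second probe set 0.35), Pdk2 had 37.6 and 60.4 (-0.68) and Pdk3 had 486 and 658 (-0.44, second probe set -0.61), so the family differed in both directions. Cpt1c, the brain form of the import enzyme, gave signals of 67.8 and 105 (-0.63), and Pex5, the import receptor of peroxisomes, gave signals of 331 and 537 (-0.70), with a second probe set at -0.23.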
